A study of Rattus norvegicus and Mus musculus with 22 samples.

Results

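Killer-cell lectin-like receptors are the surface receptors with which natural killer (NK) cells, and some T cells, read other cells. The genes followed here are those whose symbol begins with Klr or Ly49, plus Ncr1, in the rat count tables, and those beginning with Klr in the mouse table. Of 22081 symbols, 27 were listed in the day 7 lung table, 27 in the table of day 7 lung CD4-positive cells and 29 in the day 56 lung table. The 3 rat tables held 35 such symbols together, and the mouse table listed 27 of 25683. A mean of at least 0.5 CPM (a gene's count scaled to its library total) in some group was reached by 19, 17 and 22 genes in these rat tables and by 17 in the mouse table.

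All rats were of the Sugen-Hypoxia (SuHx) model of pulmonary hypertension, and rats lacking interleukin 6 (IL6KO) were set against wild-type (WT) rats. Whole lung gave 3 IL6KO and 3 WT libraries at day 7 and 3 of each at day 56, and CD4-positive lung cells isolated by MACS, a magnetic separation, gave 2 IL6KO and 2 WT libraries at day 7. Splenic CD4-positive T cells of 3 Ai14; SM22alpha-Cre mice were sorted by FACS into tdTomato-positive and tdTomato-negative fractions, the red label marking cells with past activity of a Cre driven by a smooth muscle promoter. Every rat library used here had Sugen and hypoxia, so genotype was compared within disease only, and the labels used here name no strain, age or sex and no separate cultures or batches. The p-values measure the spread between these libraries, which may be technical.

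Most members are C-type lectin-like proteins encoded side by side in the NK gene complex. Inhibitory receptors carry a tyrosine motif in their tail that recruits phosphatases, whereas activating receptors lack it and signal through the adaptors Tyrobp (DAP12) and Hcst (DAP10). Rodents have expanded the Ly49 family (also named Klra) as receptors for MHC class I, a role that human NK cells give to an unrelated immunoglobulin-like family. In whole tissue, fewer cells that carry a receptor and less of its RNA per cell cannot be told apart.

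Library totals were 15011692 to 23590070 counts in day 7 lung, 14415060 to 22961232 in day 56 lung, 11477533 to 12930732 in the CD4 isolates and 8737138 to 12560401 in spleen. Counts of the deleted gene, Il6, were low and did not separate the genotypes in day 7 lung, with 2 to 8 in IL6KO libraries and 5 to 11 in WT libraries. They were 0 to 3 in IL6KO and 5 to 6 in WT libraries at day 56, and 8 to 17 in IL6KO and 20 to 48 in WT isolates. The summed T cell markers were 1883 to 2132 CPM in IL6KO isolates and 2389 to 2462 CPM in WT isolates, against 39.4 to 51.2 CPM in IL6KO lung and 32.0 to 48.6 CPM in WT lung at day 7. In spleen they were 5036 to 5384 CPM in tdTomato-positive and 5173 to 5358 CPM in tdTomato-negative fractions. The WT library 3 of day 56 stood apart, since 1268 genes of all those tested were called without it and 2 with it.

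At day 7, IL6KO lungs had about 2 to 3 times the WT level of the NK receptor genes Ncr1, Klrd1, Klre1, Klrb1b and Klrb1c. Of 18 members tested with edgeR's quasi-likelihood test, these 5 were higher in IL6KO at a Benjamini-Hochberg adjusted p under 0.05 and 0 were lower, where 0.933% of all 14368 genes tested were called higher and 1.16% lower. The libraries of the genotypes did not overlap for 11 members, all higher in IL6KO, against 8.85% of all genes higher and 9.83% lower without overlap. The log2 fold change was above 0 for 17 of 18 members, with a median of 1.05 against 0.00 over all genes tested. 4 of the 18 members (Klre1, Ly49s5, Ly49s6 and Klra5) passed the filter on low counts only through their IL6KO libraries, so their difference was partly fixed by the filter.

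**Figure D1:**
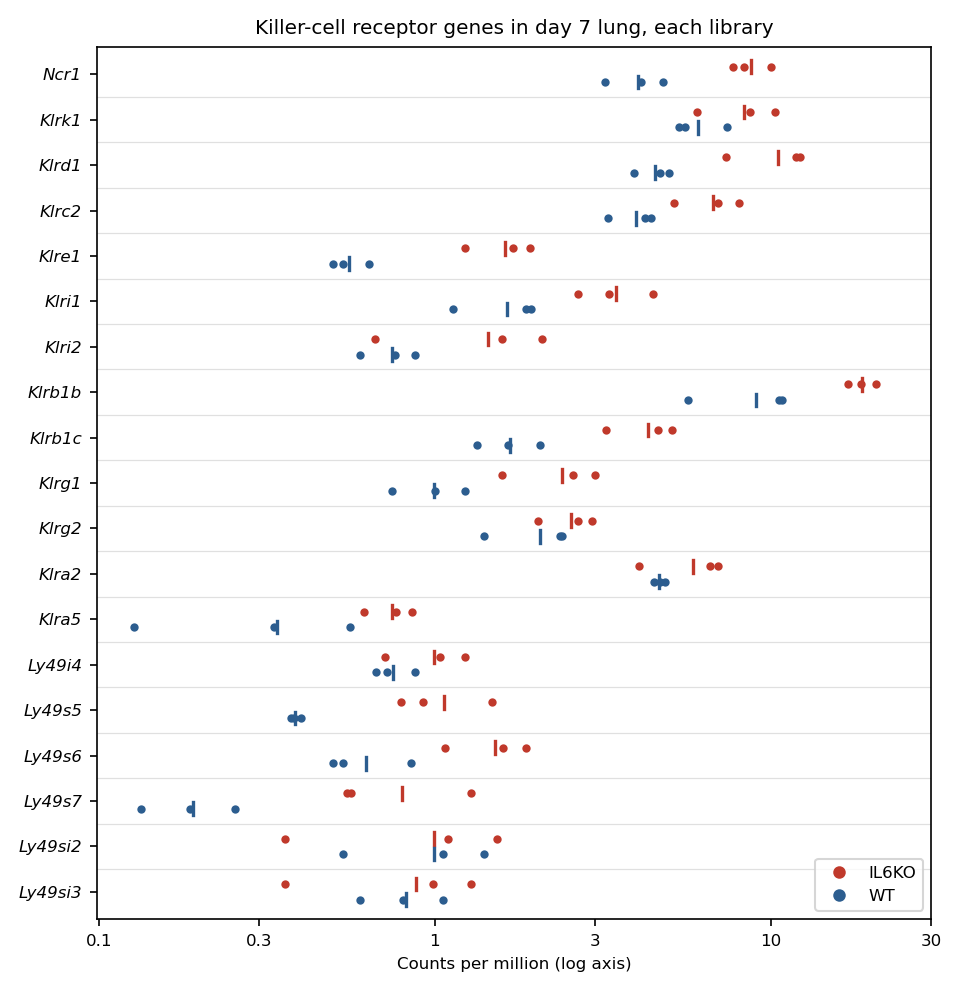
Level of each member with a mean of at least 0.5 CPM in a group of day 7 lung, on a log axis of CPM. Points are libraries and ticks are group means, IL6KO above WT (3 each). The IL6KO libraries of Ncr1 sit between 7.72 and 10.03 CPM and the WT libraries between 3.20 and 4.79 CPM, whereas those of Klra2 overlap.

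Ncr1 encodes NKp46, an activating receptor of the immunoglobulin type that marks NK cells and related innate lymphoid cells. It stood at 8.33, 10.03 and 7.72 CPM in the IL6KO lungs, against 3.20, 4.79 and 4.11 CPM in the WT lungs. Every IL6KO library was above every WT library. The log2 fold change was 1.09 (SE 0.18, adjusted p = 0.0194, n = 3 each by edgeR).

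Klrd1 encodes CD94, the common partner of the NKG2 receptors. Its level was 12.2, 11.9 and 7.36 CPM in IL6KO lungs and 4.66, 4.96 and 3.92 CPM in WT lungs, which is 1.21 higher on the log2 scale (SE 0.21, adjusted p = 0.0229). IL6KO library 3 was the lowest of its group, here and for most members, but stayed above the WT libraries. Klrc2, an NKG2 partner of Klrd1, had 6.96, 8.01 and 5.17 CPM in IL6KO lungs against 3.26, 4.41 and 4.23 CPM in WT lungs. The genotypes did not overlap for Klrc2, but its log2 fold change of 0.74 (SE 0.20) was not called (adjusted p = 0.107).

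Klrk1 encodes NKG2D, an activating receptor for stress-induced ligands that does not pair with Klrd1. It read 10.2, 8.68 and 6.03 CPM in IL6KO lungs and 5.33, 7.38 and 5.54 CPM in WT lungs. The groups overlapped, and the log2 fold change of 0.44 (SE 0.21) was not called (adjusted p = 0.401). Set against Ncr1 in the same library, there were 0.782 to 1.23 counts of Klrk1 per count of Ncr1 in IL6KO lungs and 1.35 to 1.67 in WT lungs, whereas Klrd1 gave 0.954 to 1.47 in IL6KO lungs and 0.955 to 1.46 in WT lungs.

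Klre1 is the partner chain of Klri1 and Klri2, inhibitory and activating rodent receptors. It had 1.92, 1.71 and 1.23 CPM in IL6KO lungs and 0.533, 0.636 and 0.498 CPM in WT lungs, where it rests on 8 to 15 counts. Its log2 fold change of 1.51 (SE 0.30, adjusted p = 0.0403) was the largest among the members. Klri1 had 3.29, 4.46 and 2.66 CPM in IL6KO lungs against 1.13, 1.86 and 1.93 CPM in WT lungs, with no overlap, and its estimate was 1.05 (SE 0.28, adjusted p = 0.0988). DESeq2 called Klri1 beside the 5 members called by edgeR (adjusted p = 0.0488), among 565 of 14368 genes called. Klri2 overlapped between the genotypes, at 1.59, 2.08 and 0.665 CPM in IL6KO lungs and 0.600, 0.763 and 0.871 CPM in WT lungs.

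The Klrb1 genes encode the NKR-P1 receptors, whose ligands are lectin-like proteins of the Clec2 family. Klrb1b, described in rat and mouse as inhibitory, read 18.6, 20.5 and 16.98 CPM in IL6KO lungs against 5.66, 10.8 and 10.6 CPM in WT lungs (log2 fold change 1.04, SE 0.21, adjusted p = 0.0439). Klrb1c read 4.604, 5.08 and 3.22 CPM in IL6KO lungs against 1.33, 1.65 and 2.05 CPM in WT lungs (log2 fold change 1.35, SE 0.25, adjusted p = 0.0307). Both were higher in every IL6KO library than in any WT library. Klrb1a, of the same family, is listed for day 56 lung but not for day 7 lung, so its reads may be counted under Klrb1b. How alike the transcripts of the Klrb1 genes are was not tested, and reads that match more than 1 of them may have been split between them.

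Klrg1, an inhibitory receptor for cadherins found on mature NK and effector T cells, was not called at an adjusted p of 0.0916 (log2 fold change 1.23, SE 0.31). Its level was 2.58, 3.00 and 1.58 CPM in IL6KO lungs and 0.999, 1.23 and 0.746 CPM in WT lungs, without overlap. Klrg2, a related gene of less known function, overlapped at 2.03, 2.94 and 2.66 CPM in IL6KO lungs and 2.40, 1.40 and 2.36 CPM in WT lungs.

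Of the Ly49 family, none was called at day 7. Ly49s5 had 1.48, 0.795 and 0.920 CPM in IL6KO lungs against 0.400, 0.382 and 0.373 CPM in WT lungs, and an estimate of 1.46 (SE 0.37, adjusted p = 0.0878). Ly49s6 had 1.86, 1.59 and 1.07 CPM in IL6KO lungs against 0.533, 0.848 and 0.498 CPM in WT lungs (1.21, SE 0.34, adjusted p = 0.123). Klra5 had 0.767, 0.856 and 0.614 CPM in IL6KO lungs against 0.333, 0.127 and 0.560 CPM in WT lungs (1.20, SE 0.49, adjusted p = 0.3003). These 3 did not overlap, and each rests on 34 or fewer counts per library.

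Klra2 was not called either. It read 6.96, 6.603 and 4.04 CPM in IL6KO lungs and 4.66, 4.83 and 4.48 CPM in WT lungs, an estimated log2 change of 0.33 (SE 0.21, adjusted p = 0.561). IL6KO lungs held 0.523 to 0.836 counts of Klra2 per count of Ncr1, and WT lungs 1.01 to 1.46. Ly49i4 overlapped, at 0.713, 1.04 and 1.23 CPM in IL6KO lungs and 0.666, 0.721 and 0.871 CPM in WT lungs. Ly49s7 had too few counts to be tested, with 0.548, 1.28 and 0.562 CPM in IL6KO lungs and 0.133, 0.254 and 0.187 CPM in WT lungs.

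In the RefSeq gene table of the later rat assembly GRCr8, which was used for neighbour order only, 31 of the 35 rat symbols were matched. Klrb1b, Klrb1c, Klre1 and Klrd1 are the called members other than Ncr1. Among the members alone, they follow in the order Klrb1b, Klrb1c, Klrb1, Klre1, Klrd1, Klrk1, and genes of other families between them were not looked at. Klrb1 had 0 counts in every day 7 library, and Klrk1 is the next member after Klrd1. Klra2 is the last member at the far end, beyond the Ly49 genes. This reading of the order was made after the values were seen.

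RefSeq promoter sequences (250 bases before to 50 after the start, GRCr8) were matched for 26 of the 35 rat symbols, all on chromosome 4. They are shown here for 3 genes called in day 7 lung. Interleukin 6 signals through STAT factors, and the capitals mark the STAT-type letters TTCNNNGAA, a palindrome, so that both strands are read at once. Klre1 (chr4:164719354-164719653, plus strand) holds 1 match, Klrb1c (chr4:164067999-164068298, plus strand) holds 2 and Klrb1b (chr4:163647580-163647879, minus strand) holds none.
Klre1: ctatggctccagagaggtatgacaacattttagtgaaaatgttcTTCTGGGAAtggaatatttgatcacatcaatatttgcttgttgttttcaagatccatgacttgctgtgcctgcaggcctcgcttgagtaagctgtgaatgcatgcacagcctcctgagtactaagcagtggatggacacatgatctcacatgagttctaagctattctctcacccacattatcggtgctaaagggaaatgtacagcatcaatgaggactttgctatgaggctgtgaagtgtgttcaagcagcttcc
Klrb1c: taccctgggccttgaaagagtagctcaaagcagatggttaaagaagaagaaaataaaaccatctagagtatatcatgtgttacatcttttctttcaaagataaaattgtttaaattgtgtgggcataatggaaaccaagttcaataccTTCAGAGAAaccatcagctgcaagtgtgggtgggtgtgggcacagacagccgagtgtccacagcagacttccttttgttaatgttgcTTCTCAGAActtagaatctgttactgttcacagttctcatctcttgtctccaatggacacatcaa
Klrb1b: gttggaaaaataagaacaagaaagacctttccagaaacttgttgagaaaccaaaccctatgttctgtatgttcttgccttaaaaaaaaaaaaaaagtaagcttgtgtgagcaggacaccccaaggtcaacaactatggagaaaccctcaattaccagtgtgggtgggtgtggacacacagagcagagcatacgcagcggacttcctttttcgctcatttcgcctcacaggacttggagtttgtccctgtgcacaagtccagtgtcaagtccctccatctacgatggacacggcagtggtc
These letters occur in 5 of the 26 member promoters (19.2%), those of Klrb1c, Klrc3, Klre1, Klrh1 and Klri2, and in 8.87% of all 33469 promoters in the table. The T-box letters AGGTGT on either strand occur in 5 member promoters (19.2%) and in 13.6% of all promoters. The Runx letters TGTGGT on either strand occur in 6 member promoters (23.1%) and in 17.3% of all. A match describes the letters and is no evidence of binding.

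Part of the effector genes, which NK cells and cytotoxic T cells both express, was higher in IL6KO than in WT lung at day 7. Of the effector molecules and NK transcription factors, 8 of 14 tested were higher in IL6KO and 0 lower, with a median log2 fold change of 1.07 against 0.00 over all genes, and their summed level was 199.6 to 237 CPM in IL6KO lungs and 74.7 to 110 CPM in WT lungs. They included granzyme A (Gzma, 1.72, SE 0.18, adjusted p = 0.00228), perforin (Prf1, 1.38, SE 0.15, adjusted p = 0.00349), the chemokine Ccl5 (1.24, SE 0.13, adjusted p = 0.00228) and the transcription factor Tbx21 (1.06, SE 0.13, adjusted p = 0.00661). Of other NK receptors, 3 of 11 were higher (Il2rb, Fcgr3a and Il12rb2) and 0 lower, with a median of 0.42. Of all 14368 genes tested in day 7 lung, 0.933% were called higher and 1.16% lower. Both gene lists were chosen with earlier results of these data known.

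The receptors' adaptors and ligands did not pass the test. By edgeR, 0 of 4 adaptors, 0 of 18 signalling genes and 0 of 9 ligand genes were called in either direction, with 1, 6 and 3 at an unadjusted p under 0.05 and medians of 0.01, -0.03 and 0.03. Tyrobp gave -0.06 (SE 0.11) and Hcst 0.08 (SE 0.19) on the log2 scale. Both adaptors are also made by myeloid cells. T cell markers gave 0 of 7 called, 1 at an unadjusted p under 0.05 and a median of -0.06. Summed T cell markers were 39.4 to 51.2 CPM in IL6KO lungs and 32.0 to 48.6 CPM in WT lungs, and overlapped. CD8 T cell markers (2 of 3 listed, none at 0) summed to 13.55 to 18.2 CPM in IL6KO lungs and 9.86 to 13.1 CPM in WT lungs, and B cell markers (5 of 5 listed, none at 0) to 33.7 to 44.1 CPM in IL6KO lungs and 26.4 to 29.55 CPM in WT lungs, neither overlapping. By edgeR, 0 of 2 CD8 and 0 of 5 B cell markers were called, with 1 and 3 at an unadjusted p under 0.05. The part of these cells in the receptor differences was not tested.

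The day 7 calls depended on single libraries, as did the calls over all genes. With 1 of the 6 left out, between 0 and 6 members were called. There were 0 without IL6KO library 1 or IL6KO library 2, 1 without WT library 2, and 2 without WT library 1 or WT library 3. Over all genes, 300 were called with every library, 97 without IL6KO library 1 and 94 without IL6KO library 2. Without WT library 1, 2 and 3 in turn they numbered 195, 115 and 154, and without IL6KO library 3 they numbered 372. Over these 6 fits, the log2 fold change of Ncr1 ranged from 0.95 to 1.25, Klrd1 from 1.07 to 1.41, Klre1 from 1.36 to 1.68, Klrb1c from 1.22 to 1.52 and Klrb1b from 0.81 to 1.20. Without IL6KO library 3 there were 6 calls, in which Klrc2 and Klrg1 joined Ncr1, Klrd1, Klre1 and Klrb1c.

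At day 56 no member was called between IL6KO and WT lungs. Of 21 members tested, 0 were called by edgeR, DESeq2 or limma-voom, and 2 had an unadjusted p under 0.05 by edgeR, where 0.0138% of all 14475 genes were called. The median log2 fold change of the members was -0.02 against -0.01 over all genes, and 8 of 21 were above 0. Members whose libraries did not overlap numbered 1 higher and 1 lower, against 8.94% of all genes higher and 7.25% lower without overlap. Of the 21 members, 3 (Ly49i5, Klra5_3 and Klra5_4) passed the filter on low counts only through their IL6KO libraries.

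**Figure D2:**
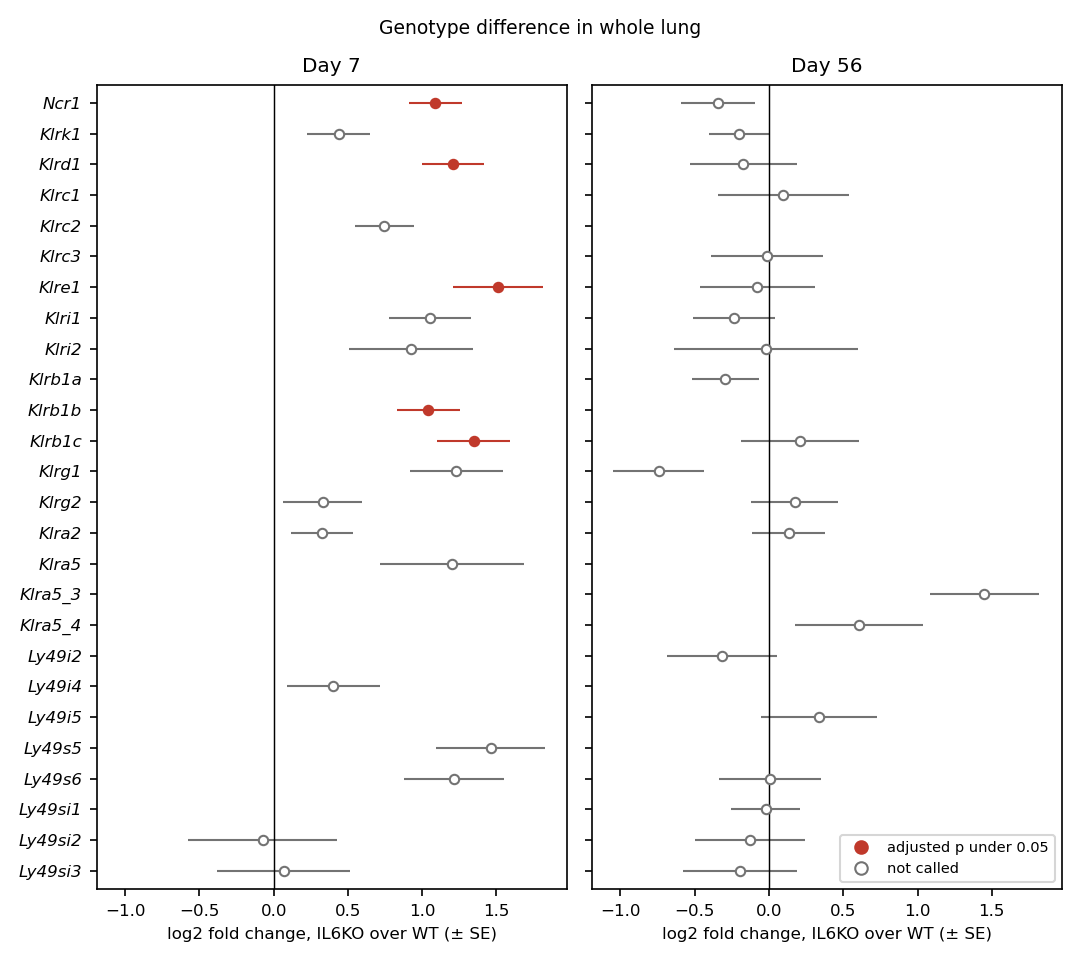
Log2 fold change of IL6KO over WT lung at day 7 and at day 56 for each member tested (bars are ± SE, 3 libraries per genotype). Filled points were called at an adjusted p under 0.05: 5 members at day 7, all to the right of 0, and 0 at day 56. Symbols in only 1 panel are absent from the other table or had too few counts there.

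Ncr1 at day 56 had 7.19, 14.1 and 13.0 CPM in IL6KO lungs and 15.9, 11.6 and 15.4 CPM in WT lungs, an estimated log2 change of -0.35 (SE 0.25, adjusted p = 0.564). Klrd1 had 6.89, 18.4 and 12.01 CPM in IL6KO lungs and 16.2, 9.06 and 16.2 CPM in WT lungs (-0.17, SE 0.36). Klrk1 had 8.79, 14.8 and 11.2 CPM in IL6KO lungs and 12.6, 11.6 and 15.3 CPM in WT lungs (-0.20, SE 0.20). IL6KO library 1 was the lowest of the 6 for all 3 genes, and the genotypes overlapped.

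Klrc3, an NKG2 gene listed only in the day 56 table, had 5.52, 11.1 and 9.08 CPM in IL6KO lungs and 9.86, 4.44 and 11.5 CPM in WT lungs. Klrb1a, which encodes the rat NK marker CD161a (NKR-P1A) and is likewise listed only there, had 14.2, 24.7 and 22.2 CPM in IL6KO lungs and 26.4, 18.7 and 28.9 CPM in WT lungs. Ly49si1 had 22.3, 23.8 and 20.1 CPM in IL6KO lungs and 23.8, 14.4 and 28.5 CPM in WT lungs. All 3 overlapped, with log2 fold changes of -0.015, -0.29 and -0.02.

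Klrg1 and Klra5_3 were the members apart at day 56. Klrg1 read 1.66, 2.96 and 3.18 CPM in IL6KO lungs against 5.60, 3.88 and 3.40 CPM in WT lungs, an estimated log2 change of -0.74 (SE 0.30, adjusted p = 0.432). Klra5_3, a numbered copy of the Klra5 symbol whose sequence identity the table does not give, read 1.19, 1.84 and 1.87 CPM in IL6KO lungs against 0.571, 0.784 and 0.347 CPM in WT lungs (1.45, SE 0.37, adjusted p = 0.398). Neither overlapped and neither was called. Klra5_3 passed the filter on low counts only through its IL6KO libraries, so its difference was partly fixed by the filter.

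The other 13 members tested at day 56 had log2 fold changes between -0.32 and 0.61 and overlapped. Klrb1c read 2.79, 6.87 and 4.69 CPM in IL6KO lungs and 4.67, 2.31 and 5.34 CPM in WT lungs, and Klre1 read 1.604, 3.44 and 1.87 CPM in IL6KO lungs and 3.17, 1.48 and 2.57 CPM in WT lungs. Klra2 read 3.92, 5.39 and 7.42 CPM in IL6KO lungs and 5.19, 4.36 and 5.55 CPM in WT lungs. Ranges over the 6 libraries were 0.523 to 1.12 CPM for Klrc1, 2.55 to 5.62 for Klri1, 0.740 to 3.94 for Klri2, 1.51 to 2.85 for Klrg2, 0.416 to 1.19 for Ly49i5, 1.70 to 3.48 for Ly49s6, 0.908 to 2.31 for Ly49i2 and 0.347 to 1.36 for Klra5_4, and Ly49si2 and Ly49si3 are given further on. Klra22, at 0.208 to 0.711 CPM, had too few counts to be tested.

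Between the days, the direct test of a genotype difference that changes with time called 0 of 15 members by edgeR, against 0% of 13865 genes. An unadjusted p under 0.05 was reached by 7 members, a count given here without its share over all genes. DESeq2 called 2 members (Ncr1 and Klrg1) among 47 of 13865 genes, and limma-voom called 0 members and 0 genes. All 15 estimates were below 0, that is, IL6KO relative to WT was lower at day 56 than at day 7, with a median of -1.125 against 0.00 over all genes. That of Ly49i2, which had 0 counts at day 7, carries no information. Klrg1 had the largest, -1.97 (SE 0.45, adjusted p = 0.420), followed by Klre1 at -1.59 (SE 0.51) and Ncr1 at -1.43 (SE 0.33, adjusted p = 0.420). Klra2 (-0.19, SE 0.34) and Klrg2 (-0.15, SE 0.40) were near 0. Without WT library 3 of day 56, 2 members were called, Ncr1 and Klrg1, among 597 of 14002 genes called in that fit.

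Within WT lungs, most members were higher at day 56 than at day 7. Of 15 tested, 9 were higher and 0 lower, where 6.72% of all genes were higher and 8.05% lower. Ncr1 averaged 14.3 ± 2.33 CPM at day 56 and 4.03 ± 0.799 CPM at day 7 (SD, n = 3 each; log2 fold change 1.78, SE 0.24, adjusted p = 0.000274). The others called were Klrg1 (2.06, SE 0.33), Klre1 (2.05, SE 0.38), Ly49s6 (1.82, SE 0.37), Klrd1 (1.57, SE 0.33), Klri1 (1.40, SE 0.29), Klrb1c (1.24, SE 0.37) and Klrk1 (1.07, SE 0.22). Klra2 (0.08, SE 0.24) and Klrg2 (-0.04, SE 0.29) were not called. Markers of other lymphocytes were higher in the same contrast, with 4 of 5 B cell, 2 of 2 CD8 T cell and 1 of 6 general T cell markers called higher and 0 lower. B cell markers summed to 55.01 to 88.2 CPM at day 56 and 26.4 to 29.55 CPM at day 7, CD8 T cell markers to 18.5 to 27.8 CPM at day 56 and 9.86 to 13.1 CPM at day 7, and general T cell markers to 53.1 to 72.4 CPM at day 56 and 32.0 to 48.6 CPM at day 7. Their part in the receptor levels was not tested.

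Within IL6KO lungs, 1 of 15 members was higher at day 56 and 0 were lower, where 3.4% of all genes were higher and 4.92% lower. Ncr1 averaged 11.4 ± 3.71 CPM at day 56 and 8.69 ± 1.195 CPM at day 7 (SD, n = 3 each; log2 fold change 0.35, SE 0.23, adjusted p = 0.412), and Klrg1 differed by 0.09 (SE 0.31). Both day comparisons were made across tables, since the day 7 and day 56 tables share 20230 symbols and 21 members. The day 7 table alone lists Klrb1b, Klrc2, Klra5, Ly49i4, Ly49s5 and Ly49s7, and the day 56 table alone lists Klrb1a, Klrc3, Ly49i5, Ly49si1 and Klra5_1 to Klra5_4. Reads of a gene missing from 1 table may be counted under a near copy, so day and table cannot be told apart.

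Ly49i2 shows that limit. It was the 1 member called in IL6KO lungs and the ninth in WT lungs, but it had 0 counts in all 6 lung libraries and all 4 isolates of day 7. At day 56 it had 26, 29 and 18 counts in IL6KO lungs and 30, 53 and 17 counts in WT lungs. Against a floor of 3 counts per library, its mean CPM at day 56 was at least 8.32-fold higher in IL6KO lungs and at least 9.82-fold higher in WT lungs than at day 7.

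Receptor genes differed in both directions between CD4 isolates and whole lung. Isolates were tested against day 7 lung of their own genotype, over the 22071 symbols that their separate tables share, in a contrast in which most genes differ: in IL6KO 36.4% of 14772 genes were higher and 43.2% lower, and in WT 37.7% were higher and 43.6% lower. Of 20 members tested, 7 were higher and 9 lower in IL6KO isolates, and 8 were higher and 4 lower in WT isolates, shares near or under this background. Some members called lower, among them Klre1, Klrg1, Klri1, Ly49i4, Ly49s5 and Ly49s6, passed the filter on low counts only through lung libraries. Ly49s7, called higher in WT, passed it only through isolates. Their differences were partly fixed by the filter. The median of all genes lay at -0.12 in both genotypes after scaling, and changes of this size are not told from 0.

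**Figure D3:**
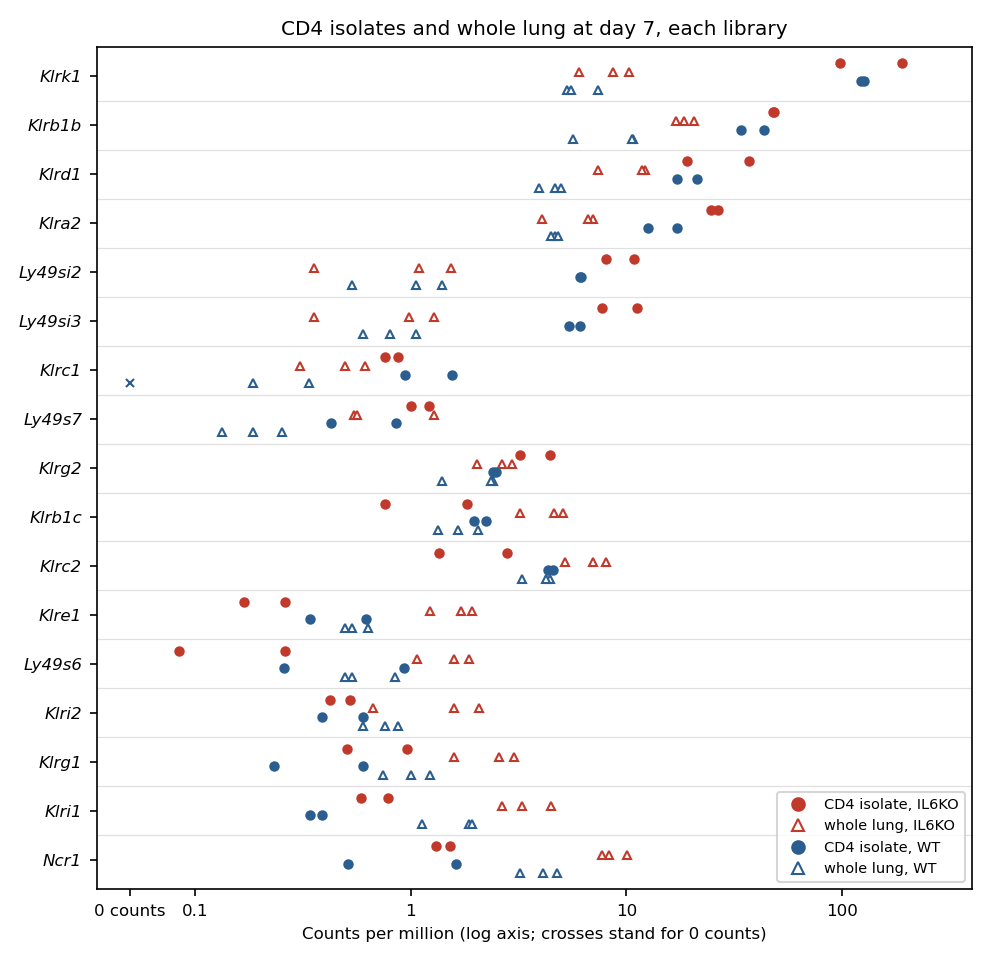
Level of 17 members in CD4 isolates (filled circles, 2 per genotype) and whole lung (open triangles, 3 per genotype) at day 7, in CPM on a log axis, with IL6KO above WT and isolate above lung. Klrk1 lies at 97.8 to 190 CPM in the 4 isolates and at 5.33 to 10.2 CPM in the 6 lungs, whereas Ncr1 is lower in the isolates.

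Klrk1 showed the widest rise among the members. It read 190 and 97.8 CPM in IL6KO isolates, against 10.2, 8.68 and 6.03 CPM in IL6KO lungs, an estimated log2 change of 4.31 (SE 0.31, adjusted p = 1.6e-06). In WT it read 122 and 127 CPM in isolates, against 5.33, 7.38 and 5.54 CPM in lungs (4.64, SE 0.32, adjusted p = 1.14e-06). Klrb1b was also higher, at 48.3 and 47.9 CPM in IL6KO isolates and 43.5 and 33.9 CPM in WT isolates. Its log2 fold changes over lung were 1.56 (SE 0.21) in IL6KO and 2.40 (SE 0.22) in WT. Klrb1a is not listed for the isolates either, so its reads may be counted under Klrb1b. Klrd1 read 37.1 and 19.0 CPM in IL6KO isolates and 17.1 and 21.2 CPM in WT isolates, with changes of 1.62 (SE 0.28) and 2.39 (SE 0.30).

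Klra2 and the pair Ly49si2 and Ly49si3 were the Ly49-type members higher in the isolates of both genotypes. Klra2 rose by 2.33 (SE 0.20) in IL6KO and 1.98 (SE 0.21) in WT on the log2 scale. Ly49si2 rose by 3.47 (SE 0.41) in IL6KO and 2.87 (SE 0.41) in WT, and Ly49si3 by 3.65 (SE 0.36) and 3.10 (SE 0.37). Klrg2 was called higher in IL6KO alone (0.78, SE 0.28), and Klrc1, which encodes the inhibitory NKG2A (2.94, SE 0.63), and Ly49s7 (1.96, SE 0.60) in WT alone; the differences between the genotypes were not called.

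Ncr1, the NK marker, was lower in the isolates. It read 1.51 and 1.31 CPM in IL6KO isolates against 8.33, 10.03 and 7.72 CPM in IL6KO lungs (log2 fold change -2.42, SE 0.33), and 0.514 and 1.62 CPM in WT isolates against 3.20, 4.79 and 4.11 CPM in WT lungs (-1.59, SE 0.36). Klri1 was also lower, by -2.13 (SE 0.39) in IL6KO and -1.85 (SE 0.45) in WT. Klrg1 (-1.50, SE 0.46), Ly49s6 (-2.89, SE 0.67) and Klri2 (-1.39, SE 0.54) were called lower in IL6KO alone. Ly49i4 (-1.55, SE 0.535) was called lower in WT alone. For these genes the differences between the genotypes were not called. There were 74.9 to 125 counts of Klrk1 per count of Ncr1 in IL6KO isolates and 78.0 to 237 in WT isolates, against 0.782 to 1.23 in IL6KO lungs and 1.35 to 1.67 in WT lungs. Ly49s5 had 3 and 2 counts in IL6KO isolates and 0 in both WT isolates, and WT lung held at least 1.57-fold more of it than the WT isolates against a floor of 3 counts.

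The isolates also held RNA of other cells. Macrophage markers (8 of 8 listed, none at 0) summed to 3412 to 4206 CPM in IL6KO isolates and 2175 to 2556 CPM in WT isolates, against 867 to 891 CPM in IL6KO lungs and 860 to 1087 CPM in WT lungs. Rat monocytes and macrophages carry CD4 themselves. CD8 T cell markers (2 of 3 listed) summed to 14.03 to 17.4 CPM in IL6KO isolates and 107 to 138 CPM in WT isolates. Neutrophil markers summed to 391 to 494 CPM in IL6KO isolates and 549 to 1211 CPM in WT isolates, and epithelial markers to 601 to 612 CPM and 1816 to 2655 CPM. The part of these cells in the receptor levels was not tested.

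Ly49si2 and Ly49si3 were counted at similar levels. Their counts were 96 and 92, and 125 and 129, in the 2 IL6KO isolates, and 71 and 63, and 80 and 79, in the 2 WT isolates. In day 7 lung they were 20 and 18, 25 and 21, and 7 and 7 in IL6KO, and 8 and 9, 33 and 19, and 17 and 17 in WT. In day 56 lung they were 12 and 23, 22 and 19, and 26 and 17 in IL6KO, and 15 and 14, 33 and 34, and 20 and 23 in WT. The isolates were the libraries with the most counts of either gene. Over the 16 rat libraries the ratio of Ly49si2 to Ly49si3 ran from 0.522 to 1.74 with a median of 1.02, and the sums were 610 and 584 counts. The promoters of the pair are shown because they are the most alike of all 325 pairs among the 26 matched members, at 99.0% identity, with the next pair at 81.0% and a median of 51.0%. Capitals mark the 3 of 300 bases that differ between Ly49si2 (chr4:165397220-165397519, minus strand) and Ly49si3 (chr4:165188046-165188345, minus strand).
Ly49si2: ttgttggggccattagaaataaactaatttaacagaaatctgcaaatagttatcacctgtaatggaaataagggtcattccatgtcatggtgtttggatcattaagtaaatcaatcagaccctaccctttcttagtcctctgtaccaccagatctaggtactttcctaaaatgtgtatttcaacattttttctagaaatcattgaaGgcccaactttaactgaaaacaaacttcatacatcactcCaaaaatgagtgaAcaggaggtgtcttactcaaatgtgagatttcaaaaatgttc
Ly49si3: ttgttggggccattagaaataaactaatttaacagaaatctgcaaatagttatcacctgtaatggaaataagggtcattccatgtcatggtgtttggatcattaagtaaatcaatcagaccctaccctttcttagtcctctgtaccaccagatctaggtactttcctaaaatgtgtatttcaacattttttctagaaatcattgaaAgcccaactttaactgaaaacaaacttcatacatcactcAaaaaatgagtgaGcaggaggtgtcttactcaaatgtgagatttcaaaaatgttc
Whether the transcripts are as alike was not tested, and reads that match both may have been divided between them, so the pair is read here as 1 uncertain signal.

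**Figure D4:**
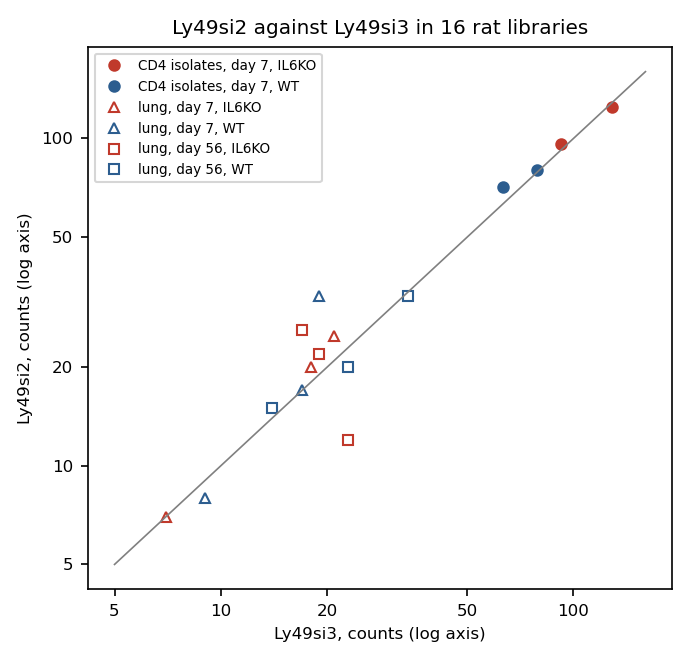
Counts of Ly49si2 against Ly49si3 in the 16 rat libraries, both on log axes, with the line of equal counts. The 4 CD4 isolates (filled circles) lie at 63 to 129 counts close to the line, and the 12 lung libraries (open symbols) at 7 to 34 counts around it.

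Between the genotypes, 1 of 12 members tested in the isolates was called, Klra2, higher in IL6KO, where 3.5% of 12243 genes were called higher and 2.91% lower. Klra2 read 24.7 and 26.7 CPM in IL6KO isolates against 12.6 and 17.2 CPM in WT isolates, from 294 and 306 counts against 147 and 222. The log2 fold change was 0.76 (SE 0.16, adjusted p = 0.0377, n = 2 each by edgeR). The call was lost when WT isolate 1, WT isolate 2 or IL6KO isolate 2 was left out. Over the 4 fits that leave out 1 library, the log2 fold change was 0.57 to 0.99. Each of these fits leaves a lone isolate in 1 genotype, so kept and lost calls there are both weak. In these isolates the summed macrophage markers were also higher in IL6KO, as given above.

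Klrk1 and Klrd1 differed widely between the IL6KO isolates themselves. IL6KO isolate 1 had 190 CPM of Klrk1 and 37.1 CPM of Klrd1, and IL6KO isolate 2 had 97.8 and 19.0 CPM, whereas the WT isolates had 122 and 127 CPM of Klrk1 and 17.1 and 21.2 CPM of Klrd1. Their log2 fold changes were 0.18 (SE 0.38) and 0.52 (SE 0.37) and were not called. Without IL6KO isolate 2, in a fit with a lone IL6KO isolate, both were called higher and Klrc2 lower, and Klra2 was not called. With IL6KO isolate 1 left out instead, Klrk1 lay at -0.37 and Klrd1 at -0.04.

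Other members of the isolates did not pass the test. Groups did not overlap for 6 members higher and 3 lower in IL6KO, against 30.1% and 25.2% of all genes. Of these, Klrb1c and Klrc1 (lower) passed the filter on low counts only through their WT libraries and Ly49s7 (higher) only through its IL6KO libraries, so their difference was partly fixed by the filter. Klrc2 read 1.34 and 2.79 CPM in IL6KO isolates and 4.54 and 4.33 CPM in WT isolates (-1.13, SE 0.37, adjusted p = 0.121). Klrb1c read 0.756 and 1.83 CPM in IL6KO isolates and 1.97 and 2.24 CPM in WT isolates (-0.73, SE 0.46). Ly49si2 read 8.07 and 10.9 CPM in IL6KO isolates and 6.08 and 6.19 CPM in WT isolates (0.60, SE 0.22, adjusted p = 0.154), and Ly49si3 gave 0.69 (SE 0.24, adjusted p = 0.137). Klrb1b (0.29, SE 0.14), Klrg2 (0.62, SE 0.31), Ly49s7 (0.75, SE 0.50), Klrc1 (-0.64, SE 0.46) and Ncr1 (0.35, SE 0.54) were not called.

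Members at low counts in the isolates were not tested between the genotypes within the isolates. Klrg1 had 0.504 and 0.958 CPM in IL6KO isolates and 0.600 and 0.232 CPM in WT isolates, and Ly49s6 had 0.0840 and 0.261 CPM in IL6KO isolates and 0.257 and 0.928 CPM in WT isolates. Klri1 had 0.588 and 0.784 CPM in IL6KO isolates and 0.343 and 0.387 CPM in WT isolates. Ly49i4 had 0.504 and 0.784 CPM in IL6KO isolates and 0.171 and 0.232 CPM in WT isolates. Klra5 had 0.840 and 0.436 CPM in IL6KO isolates and 0.343 and 0.464 CPM in WT isolates. These values rest on 12 or fewer counts per library.

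The test of whether isolation changed a gene differently in the genotypes called 3 of 20 members, Klrc2, Klrb1c and Klre1, all below 0, where 4.55% of 14772 genes were called below 0 and 1.88% above. Klrc2 was lower in isolates than in lung in IL6KO (-1.50, SE 0.30) and not called in WT (0.46, SE 0.27), a difference of -1.96 (SE 0.41, adjusted p = 0.0168 by edgeR). Klrb1c gave -1.54 (SE 0.36) in IL6KO and 0.63 (SE 0.35) in WT, a difference of -2.17 (SE 0.51, adjusted p = 0.0278). Klre1 gave -2.68 (SE 0.50) in IL6KO and 0.10 (SE 0.46) in WT, a difference of -2.78 (SE 0.70, adjusted p = 0.0374). It rests on 2 and 3 counts in IL6KO isolates and 4 and 8 in WT isolates. Klre1 passed the filter on low counts only through its IL6KO lungs, so its difference was partly fixed by the filter. All 3 calls were lost without WT isolate 1, IL6KO isolate 1 or IL6KO lung 2, and only Klrc2 was called without WT isolate 2, WT lung 1, WT lung 2 or IL6KO lung 1.

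Of the genes that act with the receptors, the adaptor Fcer1g was higher in IL6KO isolates (0.58, SE 0.09, adjusted p = 0.0117) and the adaptor Cd247, the CD3 zeta chain, was lower (-0.50, SE 0.09, adjusted p = 0.0225). Of signalling genes 5 of 18 were higher and 0 lower, among them Syk (0.81, SE 0.09) and Plcg2 (0.85, SE 0.09). Of all 12243 genes tested, 3.5% were called higher and 2.91% lower. Effectors and NK transcription factors gave 2 of 14 higher, S1pr5 (0.87, SE 0.11) and Cx3cr1 (0.80, SE 0.13), and 2 lower, Nkg7 (-1.12, SE 0.21) and Gzmk (-1.39, SE 0.23). In all, 7 of the 14 were above 0 and 7 below, with a median of -0.07. Macrophage markers summed to 3412 to 4206 CPM in IL6KO isolates and 2175 to 2556 CPM in WT isolates. T cell markers summed to 1883 to 2132 CPM in IL6KO isolates and 2389 to 2462 CPM in WT isolates. The part of these cells in the differences was not tested.

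In the mouse splenic fractions no receptor gene was called. Of 11 members tested, edgeR called 0, 1 had an unadjusted p under 0.05, and DESeq2 and limma-voom called 0, where 0% of 11083 genes were called higher and 0.00902% lower. Klrg1 (chr6:122270596-122282882 on GRCm38, minus strand) had 12.2, 28.7 and 9.90 CPM in the tdTomato-positive fractions of mice 1, 2 and 3, against 6.15, 11.1 and 5.89 CPM in their tdTomato-negative fractions. It was higher in the positive fraction of 3 of 3 mice, with an estimated log2 change of 1.10 (SE 0.40, adjusted p = 0.998 by edgeR without the mouse as a block).

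**Figure D5:**
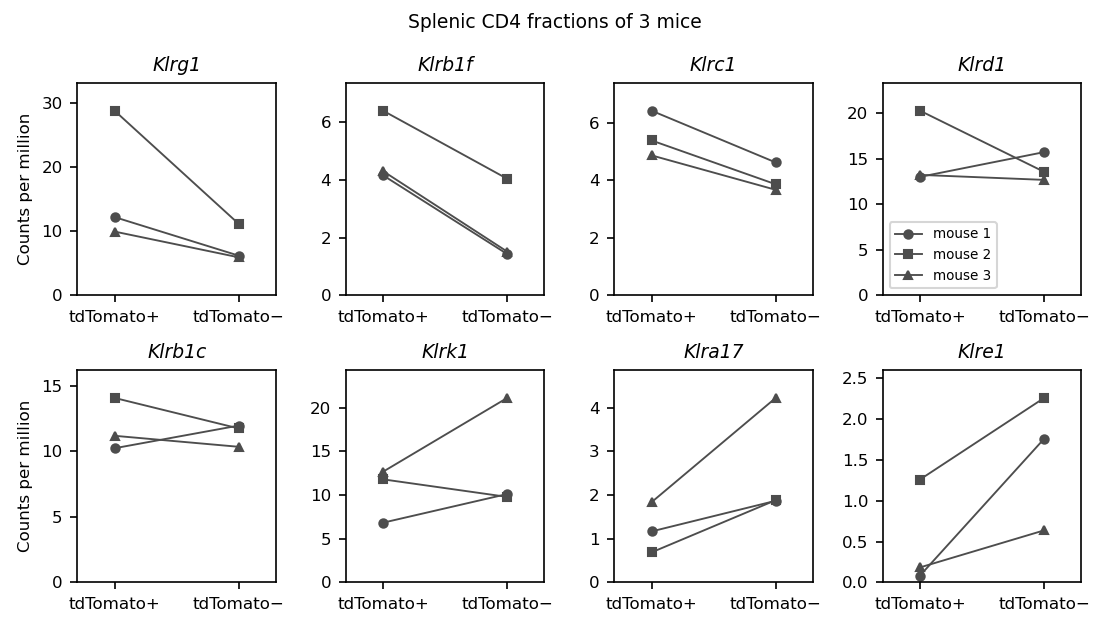
Level of 8 members in the tdTomato-positive (left) and tdTomato-negative (right) splenic CD4 fractions of 3 mice, in CPM, with a line for each mouse. Klrg1, Klrb1f and Klrc1 are higher in the positive fraction of all 3 mice, and Klra17 and Klre1 are lower in it.

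Klrb1f (chr6:129045901-129057464, plus strand), an NKR-P1 receptor gene, had 4.16, 6.41 and 4.31 CPM in positive fractions and 1.43, 4.04 and 1.51 CPM in negative fractions (1.06, SE 0.57). Klrc1 had 6.41, 5.38 and 4.86 CPM in positive and 4.61, 3.855 and 3.66 CPM in negative fractions (0.43, SE 0.44). Klra17, the mouse gene of Ly49Q, had 1.17, 0.687 and 1.83 CPM in positive and 1.87, 1.88 and 4.22 CPM in negative fractions (-1.12, SE 0.71). These 3 did not overlap between the fractions, against 4.86% of all genes higher and 3.68% lower without overlap, and none was called. Klra17 passed the filter on low counts only through its negative fractions, so its difference was partly fixed by the filter.

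Klrd1, Klrb1c and Klrk1 overlapped between the fractions and were not called. Klrd1 gave 0.11 (SE 0.27), Klrb1c 0.03 (SE 0.28) and Klrk1 -0.42 (SE 0.36), at levels of 6.83 to 21.1 CPM. Klre1, at 0.0833 to 2.26 CPM, and Klrc2, at 0.0833 to 2.75 CPM, gave -1.69 (SE 1.02) and -0.88 (SE 0.93). Klri2 gave 1.49 (SE 1.09) and Klra1 0.73 (SE 0.78), and both passed the filter only through their positive fractions. Klra3, Klra4, Klra7, Klra9, Klrb1a and Klri1 reached 0.5 CPM in a group but had too few counts to be tested. Ncr1, which is no member in mouse by the rule, had 5, 2 and 15 counts in positive and 2, 0 and 10 counts in negative fractions. B cell markers summed to 68.6 to 80.8 CPM in positive and 28.7 to 55.4 CPM in negative fractions, and macrophage markers to 63.8 to 81.0 CPM and 28.9 to 49.4 CPM, and their part was not tested.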

How the data were processed

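The authors deposited a table of counts per gene symbol for each of 4 sample sets: day 7 rat lung, day 56 rat lung, rat lung CD4 isolates and mouse splenic fractions. The submitters' processing notes name the build GRCm38, a mouse build, also for the rat samples. Neither aligner nor counting tool was given in the sources used here. CPM was computed from each count and its library total. The deposited counts were fitted with edgeR 4.0.16 in R 4.3.3 (TMM scaling, filterByExpr, robust quasi-likelihood test). P-values were adjusted across every tested gene by the Benjamini-Hochberg method, with a call at an adjusted p under 0.05. DESeq2 1.42.0, limma 3.58.1 (voom), another scaling, other filters, a replicate block and left-out libraries were alternatives, and the procedure was tested on simulated data. Day and isolation contrasts used the symbols shared by the tables. All members at 0.5 CPM or more in a group were named, and members and companion gene lists were chosen with earlier results of these data known. The splenic fractions are paired by mouse in the labels (same-mouse correlations of deviations 0.0302, 0.122 and 0.116). Their values in the text are from the fit without the mouse as a block. With the block, 0 members were called there, as without it, and 3 of 11083 genes were called against 1. The floors (3 counts) cover counting error only, whereas the SEs of the edgeR fits also hold the spread between libraries. Promoters came from a RefSeq table, aligned with Biopython 1.88.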

Additional observations from a re-analysis of the deposited data

Results flagged for a closer look

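A total of 3 receptor genes differed between the genotypes in how isolation of CD4-positive cells changed them relative to whole lung at day 7, by the direct test of that difference with edgeR. The difference, IL6KO minus WT on the log2 scale, was -1.96 for Klrc2, -2.17 for Klrb1c and -2.78 for Klre1. Klre1 passed the filter on low counts only through its IL6KO lungs, so its difference was partly fixed by the filter. The calls did not hold in every setting. DESeq2 and the filter at a mean of 1 CPM each called 2 of the 3, Klrc2 and Klrb1c, and gave no adjusted p for Klre1. With the replicate number as a block, Klre1 was tested and not called. The summed CD8 T cell markers were 14.03 to 17.4 CPM in IL6KO isolates and 107 to 138 CPM in WT isolates, and their part in these differences was not tested.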

How the results depend on the processing

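Members at low counts, such as Klre1 with 8 to 15 counts in WT day 7 lung, are limited by depth, and 2 isolates per genotype limit every isolate comparison. With 1 library left out, the number of members called ranged from 0 to 6 in day 7 lung, 0 to 3 in the isolates, 0 to 2 for genotype by day, 8 to 10 for WT day 56 against day 7, 10 to 12 for isolate against lung in WT, 14 to 16 in IL6KO and 0 to 3 for genotype by isolation, and it stayed at 0 in day 56 lung and spleen and at 1 for IL6KO day 56 against day 7. A lone isolate was assumed to vary like the other groups. In day 7 lung, calls over all genes ranged from 94 to 372 with 1 library left out. DESeq2 called 2 members for genotype by day, among 47 of 13865 genes called, and the cause was not tested. A filter at a mean of 1 CPM left 0 members called for IL6KO day 56 against day 7, by edgeR. With that filter Ly49i2 was not among the genes tested. Of the member values outside left-out libraries, 9 changed sign, none of them called. With limma-voom, these were Ly49si3 in day 7 lung (-0.086), Klrc3 (0.106), Klri2 (0.246) and Ly49si1 (0.059) in day 56 lung, Ly49si2 for genotype by day (0.111) and Klrg2 for the WT days (0.041), and the cause was not tested.

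Left-out libraries turned the sign of the log2 value of uncalled members. In day 7 lung, Ly49si3 ranged from -0.291 to 0.454 and Ly49si2 from -0.494 to 0.342. In day 56 lung, Klre1 ranged from -0.464 to 0.178, Klrc3 from -0.332 to 0.246, Klrc1 from -0.286 to 0.434, Klri2 from -0.48 to 0.428, Ly49si1 from -0.257 to 0.193, Klrb1c from -0.126 to 0.466, Ly49si2 from -0.371 to 0.084, Ly49s6 from -0.181 to 0.415, Klrg2 from -0.034 to 0.414, Klrd1 from -0.55 to 0.103 and Klra2 from -0.121 to 0.316. In the isolates, Ncr1 ranged from -0.215 to 1.395, Klrd1 from -0.04 to 0.924 and Klrk1 from -0.37 to 0.583. In spleen, Klrb1c ranged from -0.097 to 0.128, Klrd1 from -0.106 to 0.232 and Klrk1 from -0.615 to 0.036. For genotype by day, Ly49si2 ranged from -0.473 to 0.347, Klrg2 from -0.357 to 0.1 and Ly49si3 from -0.643 to 0.084. For the IL6KO days, Klra2 ranged from -0.368 to 0.07, Klrb1c from -0.218 to 0.36, Klrd1 from -0.171 to 0.47, Klrg2 from -0.396 to 0.058, Klrg1 from -0.135 to 0.308, Klri1 from -0.039 to 0.325, Ly49si3 from -0.061 to 0.667 and Ly49si2 from -0.272 to 0.55. For the WT days, Klrg2 ranged from -0.274 to 0.083 and Ly49si2 from -0.08 to 0.546. For isolate against lung, Klra5 ranged from -0.539 to 0.406 in IL6KO, and in WT Klre1 from -0.343 to 0.459, Klri2 from -0.618 to 0.045 and Ly49s6 from -0.939 to 0.849. For genotype by isolation, Klrg1 ranged from -1.091 to 0.294, Ncr1 from -1.389 to 0.219, Klrg2 from -0.05 to 0.526, Klrk1 from -0.891 to 0.072 and Klri1 from -0.489 to 0.017.

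With the replicate number as a block, 6 members were called in day 7 lung (Klrg1 joined the 5), 0 in day 56 lung, 1 in the isolates, 0 in spleen, 0 for genotype by day and 3 for genotype by isolation (Klrc2, Klrb1c and Ly49s6, with Klre1 lost). Under the block Klrc3 (0.018), Klri2 (0.082) and Ly49si1 (0.021) changed sign in day 56 lung. Over all genes the block gave 543 calls against 300 in day 7 lung. In the labels, the rat libraries share only a number. The correlation of same-numbered deviations was 0.056, 0.078 and 0.256 in day 7 lung, -0.161, -0.075 and -0.028 in day 56 lung and -0.000359 in the isolates. Differently numbered libraries of day 7 lung gave -0.165 to 0.111. These values cannot decide whether rat libraries were paired, since fractions of the same mouse gave only 0.0302 to 0.122. With 2 isolates per genotype, deviations within a group mirror each other, so the isolate value is no check. No paired analysis was possible for the day and isolation contrasts within a genotype because their numbers belong to different sets of libraries.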
